A study of Mus musculus with 6 samples.

Results

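The kallikreins and desquamation proteases of mouse papilloma cells were followed as 10 genes: 7 kallikreins (Klk5, Klk6, Klk7, Klk8, Klk10, Klk11 and Klk13), their inhibitor Spink5, and the cornified layer proteases Asprv1 and Casp14. They were taken by symbol from the deposited table, in which 11 probe sets were annotated to exactly 1 of these symbols, 2 of them to Casp14. Of 18194 genes with such a probe set, 13222 passed the filter on low values and were tested, and 9 of the 10 genes were among them. Klk5 was not, because only 2 of 6 arrays exceeded the 40th percentile of their array.

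The samples were tumour epithelial cells of benign, chemically induced skin papillomas, sorted as Epcam+ and alpha6 integrin+ cells without CD45, CD31 or CD140a. The Sox2cKO group carried floxed Sox2 alleles and a tamoxifen-activated Cre under the keratin 14 promoter (K14CREER:SOX2fl/fl), which acts in keratinocytes of the basal layer and their progeny. The control (CTRL) group received tamoxifen as well, so both groups had 1 week of the drug, and each group had 3 arrays. The genotype of the control mice, the strain, the age, the inducing chemical and the number of tumours or mice behind an array are not stated in these sources, beyond the mention of 3 biological experiments. P-values therefore measure the spread between these arrays.

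Kallikreins are secreted serine proteases that upper keratinocytes store in lamellar granules and release towards the stratum corneum. There they cut the corneodesmosomes that hold dead cells together, so that these cells are shed. Spink5 encodes LEKTI, which blocks several kallikreins and whose loss causes Netherton syndrome in humans, while Asprv1 (an aspartic protease also called SASPase) and Casp14 (a caspase of cornifying cells) take part in processing filaggrin. These genes are best known from differentiating keratinocytes rather than from the alpha6-rich basal layer.

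The 7 kallikrein genes lie in a single cluster on chromosome 7, in the order Klk13, Klk11, Klk10, Klk8, Klk7, Klk6 and Klk5, with Klk12 between Klk13 and Klk11 and Klk9 between Klk10 and Klk8. Asprv1 lies on chromosome 6 and Casp14 on chromosome 10. Windows of 300 bases around annotated starts (250 before, 50 after) were read for 9 of the 10 genes from RefSeq on GRCm38.p6, 11 windows in all, and 6 are shown. The first 4 belong to neighbouring genes with correlations of 0.59 to 0.94 over the 6 arrays, much of it from the arrays of replicate 2. The last 2 belong to the pair of genes with the highest correlation. Capitals mark ATTGTT, a core of SOX sites, or TTGCNNAA, a C/EBP pattern, on either strand.
Klk8 at chr7:43797327-43797626 (+): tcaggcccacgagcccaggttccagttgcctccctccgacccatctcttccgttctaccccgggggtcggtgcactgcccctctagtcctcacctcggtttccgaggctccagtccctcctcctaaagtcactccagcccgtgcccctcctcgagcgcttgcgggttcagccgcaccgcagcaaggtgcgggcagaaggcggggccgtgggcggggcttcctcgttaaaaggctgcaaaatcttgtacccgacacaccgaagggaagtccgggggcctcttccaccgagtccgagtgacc
Klk7 at chr7:43811044-43811343 (+): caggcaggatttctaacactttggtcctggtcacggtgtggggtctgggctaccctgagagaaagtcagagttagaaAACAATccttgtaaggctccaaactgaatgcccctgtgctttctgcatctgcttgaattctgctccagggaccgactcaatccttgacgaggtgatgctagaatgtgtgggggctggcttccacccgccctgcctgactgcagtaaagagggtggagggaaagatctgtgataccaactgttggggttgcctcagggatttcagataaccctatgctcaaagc
Klk6 at chr7:43824294-43824593 (+): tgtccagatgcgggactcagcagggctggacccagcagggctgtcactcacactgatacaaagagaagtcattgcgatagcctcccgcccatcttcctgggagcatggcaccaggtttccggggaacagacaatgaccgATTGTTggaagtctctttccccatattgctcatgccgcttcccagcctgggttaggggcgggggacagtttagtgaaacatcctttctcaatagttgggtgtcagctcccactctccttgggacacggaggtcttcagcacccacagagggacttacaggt
Klk5 at chr7:43842019-43842318 (+): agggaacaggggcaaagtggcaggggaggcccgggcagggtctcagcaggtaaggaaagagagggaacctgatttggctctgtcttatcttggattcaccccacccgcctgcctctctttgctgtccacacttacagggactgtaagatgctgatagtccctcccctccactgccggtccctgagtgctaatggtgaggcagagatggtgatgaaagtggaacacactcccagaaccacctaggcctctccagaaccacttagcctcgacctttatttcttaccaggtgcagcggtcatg
Klk11 at chr7:43774367-43774666 (+): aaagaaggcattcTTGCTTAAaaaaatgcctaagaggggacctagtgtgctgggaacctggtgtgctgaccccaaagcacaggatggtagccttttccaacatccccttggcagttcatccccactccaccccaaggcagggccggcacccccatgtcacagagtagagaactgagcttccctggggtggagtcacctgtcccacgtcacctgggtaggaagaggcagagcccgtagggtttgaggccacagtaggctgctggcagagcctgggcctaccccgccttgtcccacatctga
Asprv1 at chr6:86627924-86628223 (+): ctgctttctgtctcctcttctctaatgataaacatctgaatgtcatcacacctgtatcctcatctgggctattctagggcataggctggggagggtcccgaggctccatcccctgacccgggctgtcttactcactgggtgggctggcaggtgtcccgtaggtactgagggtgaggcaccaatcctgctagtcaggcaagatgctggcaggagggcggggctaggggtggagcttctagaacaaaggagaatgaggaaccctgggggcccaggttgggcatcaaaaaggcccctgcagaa

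ATTGTT, read on both strands, was present in 2 of the 11 windows, those of Klk7 and of 1 of the 2 starts of Klk6, and in 10.7% of all 32851 windows in the table. The C/EBP pattern TTGCNNAA was found in 2 windows, both of Klk11, and in 10.8% of all windows. CACCC, a KLF core, was in 8 of the 11 windows and in 57.5% of all. The AP-1 pattern TGANTCA, the TATA box letters TATAAA and the grainyhead-like pattern AACNGGTT were in 0 of the 11, against 7.81%, 13.6% and 2.09% of all windows. ATTGTT and TTGCNNAA did not overlap in any window shown. These matches describe letters and no binding was measured.

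Sox2, the deleted gene, read 4.07, 4.63 and 3.23 in Sox2cKO arrays, against 7.19, 8.31 and 8.18 in CTRL arrays (log2 expression throughout). Its fitted difference of -3.92 (SE 0.41) had the smallest p of all genes, with an adjusted p of 0.316. Itga6, the alpha6 integrin of the sort, averaged 12.26 ± 0.19 in Sox2cKO and 12.17 ± 0.07 in CTRL, and Epcam averaged 10.85 ± 0.35 and 11.31 ± 0.20 in the same order (SD, n = 3 each). Array medians lay between 5.42 and 5.46, and probe sets of an unspiked bacterial gene at 3.34 to 3.41. In CTRL replicates 2 and 3 Xist, the RNA of the inactive X chromosome in females, read 12.03 and 11.85, against 6.08 to 7.54 in the 3 Sox2cKO arrays and 7.30 in CTRL replicate 1. Sex and group therefore cannot be told apart except through CTRL replicate 1.

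None of the 10 genes differed between Sox2cKO and CTRL cells beyond the spread between arrays. With limma, 0 of the 9 tested members passed an adjusted p of 0.05, and 0 of all 13222 genes did (0.0%). The adjusted p was 0.999 for each of the 9. At an unadjusted p under 0.05 there were 0 members, against 354 genes (2.68%), 1.38% higher and 1.29% lower in Sox2cKO. In 0 of the 11 probe sets did the 3 Sox2cKO values lie wholly above or below the 3 CTRL values, against 5.85% of all genes tested, 2.73% wholly higher and 3.12% wholly lower in Sox2cKO. Fitted differences were above 0 for 8 of 9 members, with a median of 0.16, while 50.6% of all genes lay above 0 and their median was 0.00. In sorted bulk cells, fewer cells expressing a gene and less RNA per cell cannot be told apart.

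**Figure D1:**
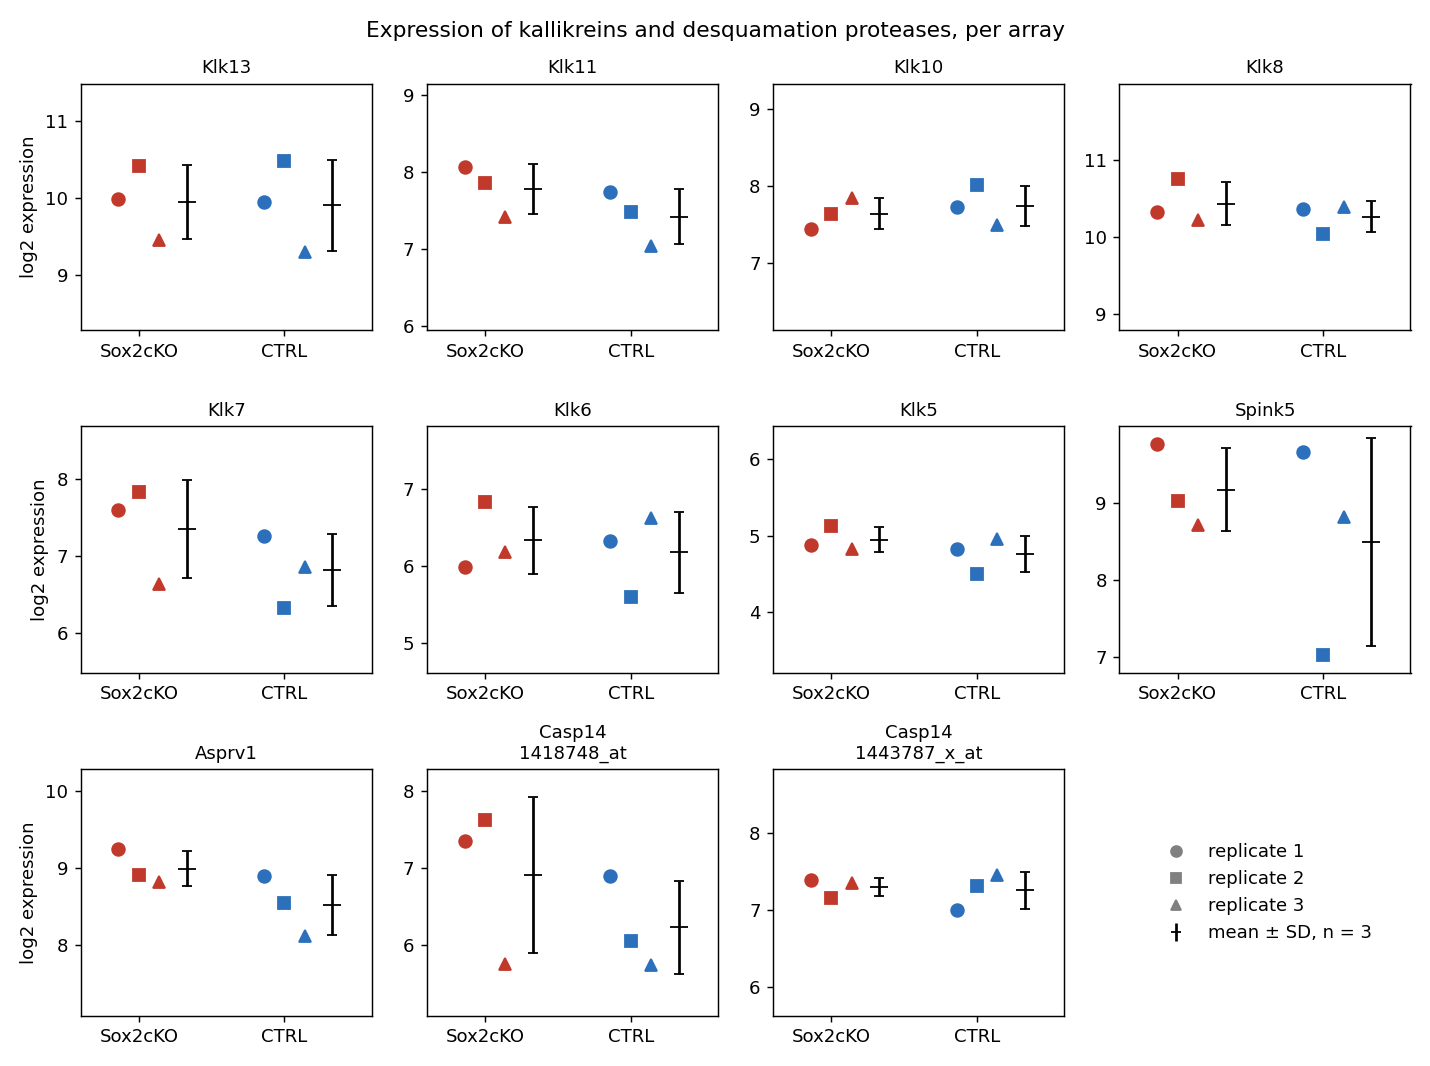
Log2 expression of the 11 probe sets in Sox2cKO (red, left) and CTRL (blue, right) arrays, with marker shape for the replicate number and bars for mean ± SD (n = 3); every panel spans the same log2 range. The groups overlap in every panel, and Spink5 in CTRL replicate 2, at 7.02, is the value farthest from its group.

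**Figure D2:**
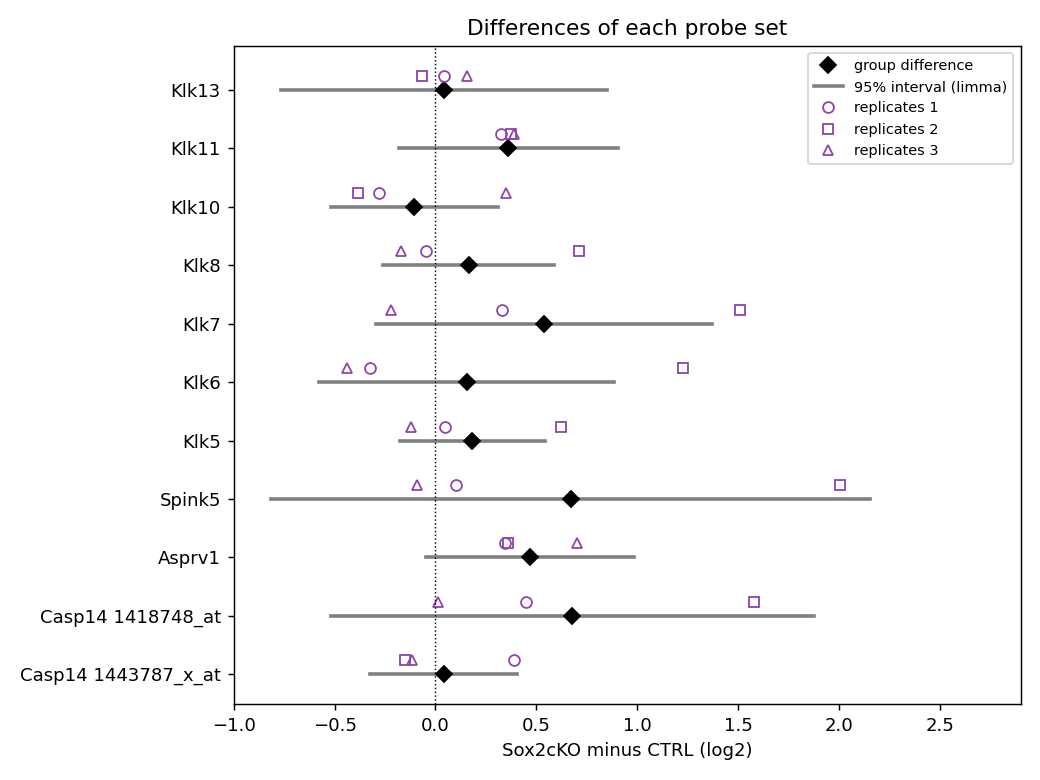
Difference of Sox2cKO minus CTRL (log2) for each probe set, as the group difference (diamond), its 95% interval from limma (grey bar) and the differences between arrays of the same replicate number (open markers). Every interval includes 0, and the 3 open markers of Klk11 lie between 0.32 and 0.39.

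Klk7, the chymotrypsin-like kallikrein that cuts corneodesmosin, read 7.59, 7.84 and 6.63 in Sox2cKO, against 7.26, 6.33 and 6.85 in CTRL. Sox2cKO replicate 3 lay below 2 of the 3 CTRL arrays, so the groups overlapped. The difference was 0.54 (SE 0.36, 95% interval -0.30 to 1.37). It was 0.90 without Sox2cKO replicate 3, 0.29 without CTRL replicate 2 and 0.30 without Sox2cKO replicate 2.

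Klk5, the trypsin-like kallikrein that activates other kallikreins, read 4.87, 5.13 and 4.83 in Sox2cKO, against 4.83, 4.50 and 4.95 in CTRL. These values lie around the 40th percentile of the arrays (4.90 to 4.94), and the highest value was in Sox2cKO replicate 2 and the lowest in CTRL replicate 2. Without the filter its difference was 0.18 (SE 0.15, 95% interval -0.18 to 0.54), and it was 0.05 without CTRL replicate 2.

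Klk8, a trypsin-like kallikrein also known as neuropsin, read 10.32, 10.74 and 10.21 in Sox2cKO, against 10.36, 10.03 and 10.38 in CTRL. The arrays were close together apart from those of replicate 2, which gave the highest and the lowest value. Its difference was 0.16 (SE 0.18, 95% interval -0.26 to 0.59), and it was 0.0055 without Sox2cKO replicate 2.

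Klk6, a trypsin-like kallikrein also known as neurosin, read 5.99, 6.83 and 6.18 in Sox2cKO, against 6.32, 5.60 and 6.62 in CTRL. Again both extremes were arrays of replicate 2. The difference of 0.15 (SE 0.31, 95% interval -0.57 to 0.88) turned to -0.09 without Sox2cKO replicate 2 and to -0.14 without CTRL replicate 2.

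Klk11, another trypsin-like family member, read 8.06, 7.85 and 7.42 in Sox2cKO, against 7.73, 7.47 and 7.03 in CTRL. The groups overlapped, and the replicate numbers were ordered alike in both, with replicate 1 highest and replicate 3 lowest. Sox2cKO minus CTRL was 0.32, 0.38 and 0.39 between arrays numbered 1, 2 and 3. The group difference was 0.36 (SE 0.23, 95% interval -0.18 to 0.91), and it was 0.17 without CTRL replicate 3.

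Klk13 read 9.99, 10.41 and 9.45 in Sox2cKO, against 9.95, 10.48 and 9.29 in CTRL. This trypsin-like kallikrein had almost the same 3 values in both groups, with replicate 2 highest and replicate 3 lowest in each. The difference of 0.04 (SE 0.34) had a 95% interval from -0.76 to 0.85, and it turned to -0.19 without Sox2cKO replicate 2 and to -0.26 without CTRL replicate 3.

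Klk10 was the only tested member below 0, at -0.10 (SE 0.18, 95% interval -0.52 to 0.31). It read 7.45, 7.64 and 7.85 in Sox2cKO, against 7.73, 8.02 and 7.50 in CTRL. The 2 groups covered nearly the same range, and without CTRL replicate 2 the difference was 0.03.

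Spink5 read 9.77, 9.02 and 8.72 in Sox2cKO, against 9.67, 7.02 and 8.81 in CTRL. A single array, CTRL replicate 2, lay 1.79 below the next lowest control, and the other 5 arrays overlapped. The fitted difference of this kallikrein inhibitor was 0.67 (SE 0.63, 95% interval -0.81 to 2.15). Without CTRL replicate 2 it turned to -0.07, and without CTRL replicate 1 it was 1.25.

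Asprv1 read 9.24, 8.91 and 8.82 in Sox2cKO, against 8.89, 8.54 and 8.11 in CTRL. Only CTRL replicate 1 reached into the range of the Sox2cKO arrays, above the lowest of them. The difference of 0.47 (SE 0.22, 95% interval -0.04 to 0.98) had the smallest unadjusted p among the members, 0.0680 in limma. Between arrays of the same number it was 0.35, 0.36 and 0.70, and the group difference was 0.27 without CTRL replicate 3.

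Casp14 was read by 2 probe sets that differed. Probe set 1418748_at, annotated to the mRNA record of the gene, read 7.34, 7.62 and 5.74 in Sox2cKO, against 6.89, 6.04 and 5.73 in CTRL. Its values fell into 3 higher and 3 lower arrays, with Sox2cKO replicate 3 at the level of CTRL replicate 3. The difference was 0.68 (SE 0.51, 95% interval -0.52 to 1.88), and it was 1.26 without Sox2cKO replicate 3 and 0.32 without Sox2cKO replicate 2. Probe set 1443787_x_at read 7.38, 7.16 and 7.34 in Sox2cKO, against 6.99, 7.31 and 7.46 in CTRL, a difference of 0.04 (SE 0.15). It varied over 0.47 in all 6 arrays, against 1.89 for the other probe set, and the correlation between the 2 probe sets was -0.51. Because it had the higher mean it stood for Casp14 among the genes tested, and with the mean of both probe sets the Casp14 difference was 0.36.

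Arrays of the same replicate number were treated as pairs. In pairs 2 and 3 Xist was high in the CTRL array only, so group and sex cannot be told apart within them. With the number as a block in limma, Klk11 had a difference of 0.36 with an SE of 0.10, and Asprv1 0.47 with an SE of 0.12. Their adjusted p values were 0.927 and 0.884, so the block changed no call. At an unadjusted p under 0.05 these 2 members were counted, beside 656 of 13222 genes (4.96%). All 3 paired differences were above 0 for 2 of 9 tested members, the same Klk11 and Asprv1, and for 12.1% of all genes. With arrays coded for sex instead of paired, the difference was 0.04 for Klk11 and 0.09 for Asprv1. Casp14 by 1418748_at had paired differences of 0.45, 1.58 and 0.01. In Spink5, Klk7, Klk6, Klk8 and Klk5 the difference between arrays of replicate 2 was by far the highest of the 3, at 2.00, 1.51, 1.23, 0.71 and 0.62. The other 2 differences of these genes lay between -0.44 and 0.33.

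**Figure D3:**
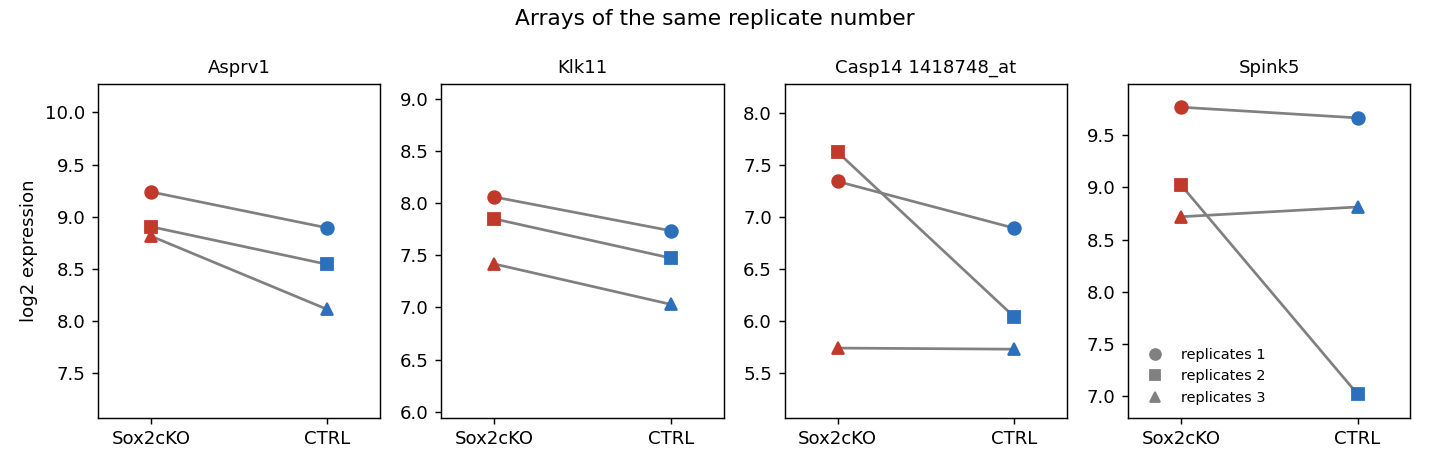
Log2 expression of Asprv1, Klk11, Casp14 (1418748_at) and Spink5, with lines joining Sox2cKO (left) and CTRL (right) arrays of the same replicate number. The 3 lines of Klk11 are nearly parallel, and the Spink5 line of replicates 2 spans 2.00 while its other lines are almost level.

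Members shared parts of their pattern over the 6 arrays, given here as a description, since the arrays hold both groups and share their scaling. Klk8, Klk7, Klk6 and Klk5, which follow each other on the chromosome, had correlations of 0.59 to 0.94 in all 6 of their pairs, highest between Klk8 and Klk5. The arrays of replicate 2 contribute much of this: without the 2 arrays farthest from the median of Klk8, its correlations with Klk7, Klk6 and Klk5 were 0.40, 0.59 and 0.59 over 4 arrays. That of Klk7 with Klk5 was 0.79 over 6 arrays and -0.064 without the 2 arrays farthest from the median of Klk7. Klk7 with Klk6 went from 0.59 to -0.51 in the same way. Asprv1 and Klk11, on different chromosomes, had the highest correlation of the 55 pairs of probe sets, at 0.94 (Spearman 0.94), and 0.66 over 4 arrays. Casp14 by 1418748_at went with Klk7 (0.91) and Klk11 (0.89). Klk10 had negative correlations with 9 of the 10 other probe sets, down to -0.76 with Spink5 (0.089 over 4 arrays), and Casp14 by 1443787_x_at with all 10. Without the 2 arrays farthest from the median of that Casp14 probe set, many of its correlations turned. They were 0.92 with Klk8, 0.90 with Klk6, 0.84 with Klk5, 0.57 with Spink5 and 0.45 with Klk7. Those with Klk11, Asprv1, Klk13 and Klk10 lay between -0.83 and -0.38. The median over the 55 pairs was 0.25.

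**Figure D4:**
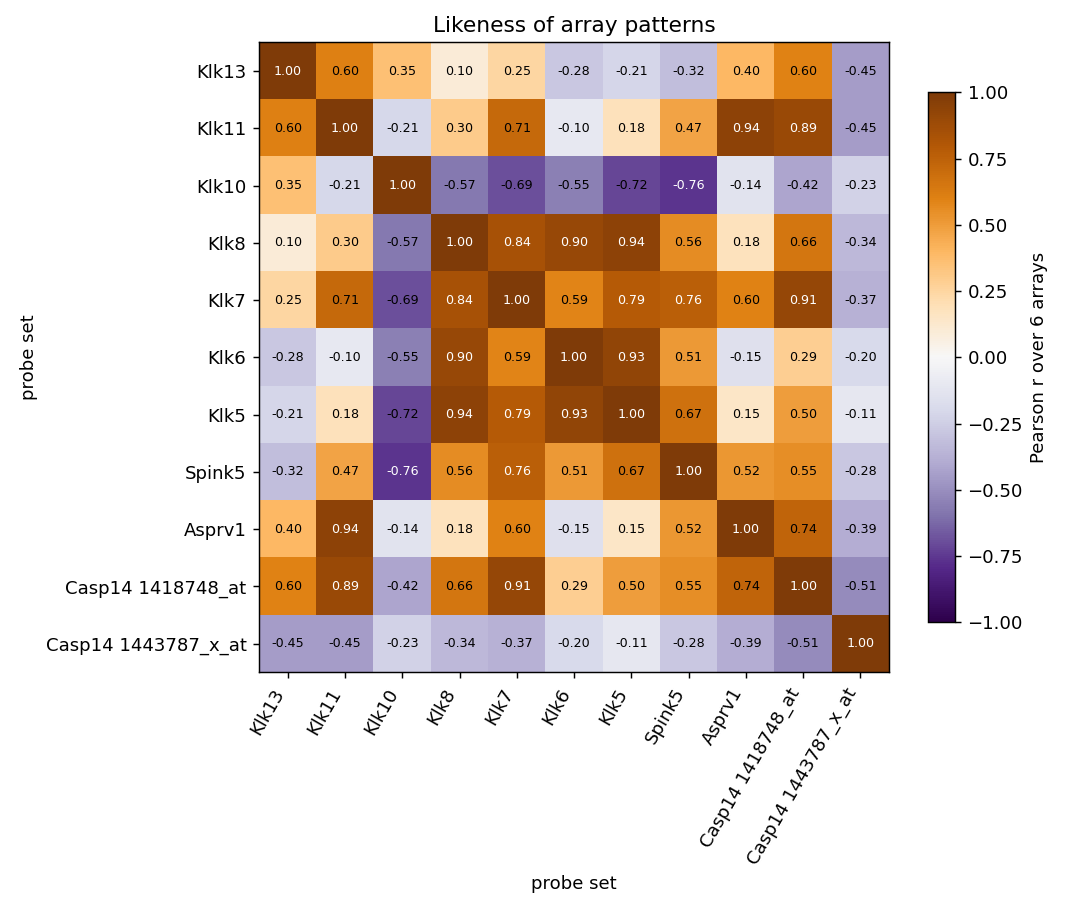
Pearson correlation over the 6 arrays between the 11 probe sets, kallikreins in chromosome order followed by Spink5, Asprv1 and Casp14. A block of positive values from 0.59 to 0.94 covers Klk8, Klk7, Klk6 and Klk5, while Klk10 and Casp14 1443787_x_at are mostly negative.

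The mean deviation of the 9 tested members was 0.23, 0.29 and -0.13 in Sox2cKO replicates 1 to 3, against 0.13, -0.33 and -0.19 in CTRL replicates 1 to 3. Markers of suprabasal keratinocytes were above 0 in the same 3 arrays, at 0.45, 0.33 and -0.32 in Sox2cKO and 0.42, -0.57 and -0.31 in CTRL. The correlation of both scores was 0.96 (Spearman 0.77) and 0.97 without the 2 farthest arrays. Suprabasal markers were not alone in this. The member score had a correlation of 0.97 (Spearman 0.89) with the list of desmosome, corneodesmosome and filaggrin family genes. It was 0.93 (0.89) with protease inhibitors and 0.91 (0.77) with other epidermal proteases. With the genes that tell the sex of an array it was 0.87 (0.89), and 0.79 without the 2 farthest arrays. The remaining lists lay between -0.57 and 0.64. Klk7, Casp14 by 1418748_at and Spink5 followed the suprabasal score most closely, at 0.92, 0.88 and 0.86. Klk6 and Klk13 followed it less, at 0.39 and 0.22. Klk10 had a correlation of -0.60 with it, and Casp14 by 1443787_x_at, the probe set used in the member score, of -0.55. The score of basal keratinocyte markers lay between -0.13 and 0.05 in all arrays. Its correlation with that of the members was -0.31 (Spearman -0.086), and 0.19 without the 2 farthest arrays. Sox2cKO replicates 1 and 2 and CTRL replicate 1 were thus the arrays high in both mean scores. Not every member had this pattern. Klk13 was highest in CTRL replicate 2, Klk10 was lowest in Sox2cKO replicate 1, and Klk6 was higher in CTRL replicate 3 than in Sox2cKO replicate 1. How far the share of suprabasal cells bears on the member values was not tested. Coding CTRL replicates 2 and 3 as female sets the Sox2cKO arrays against 1 array, CTRL replicate 1. It gave a member median of 0.04, with 7 of 9 tested members above 0. Asprv1 was at 0.09, Klk11 at 0.04, Klk7 at 0.09 and Spink5 at -0.50. Casp14 by 1443787_x_at rose instead, from 0.04 to 0.30.

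**Figure D5:**
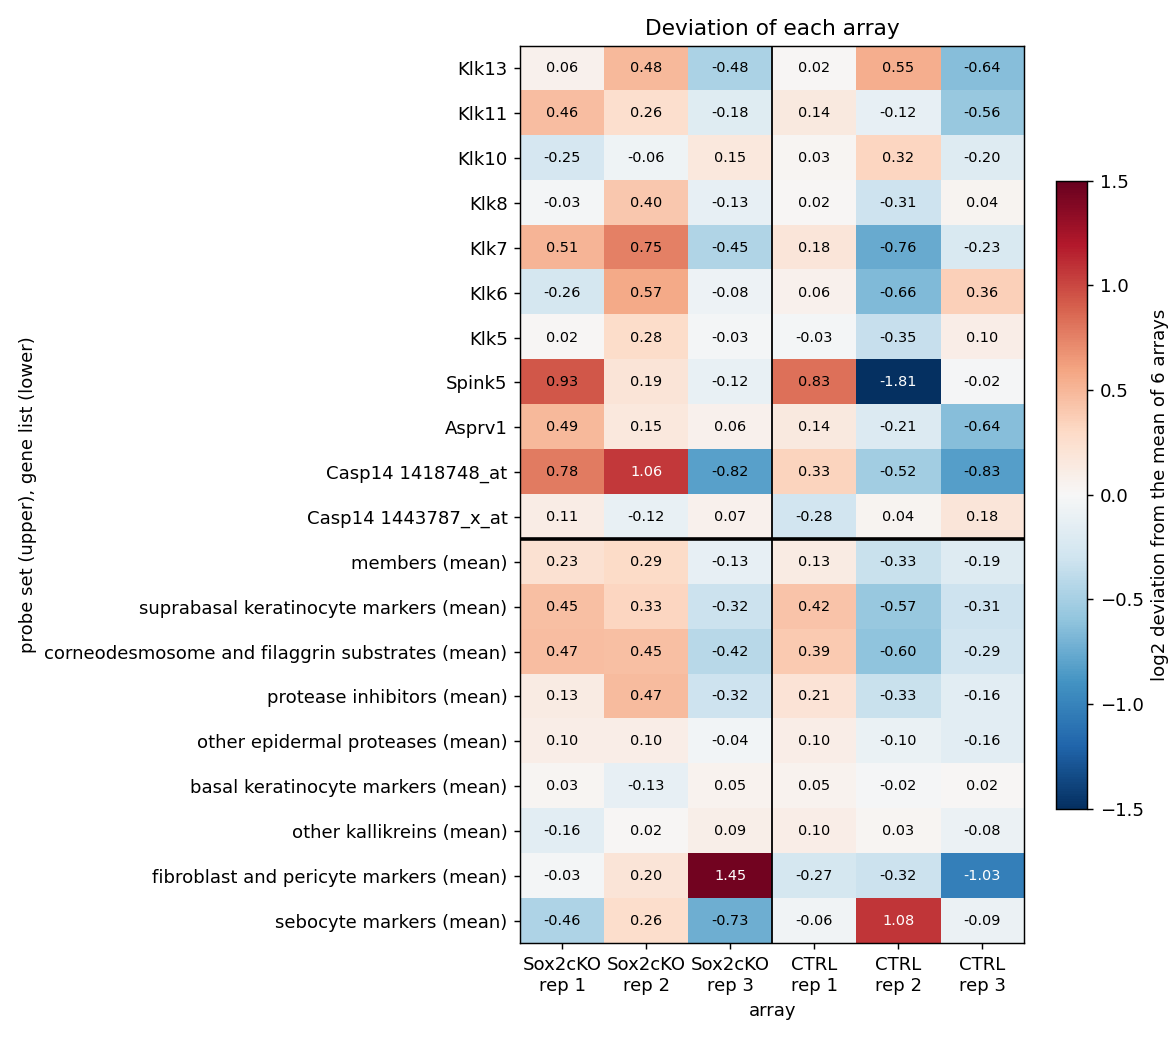
Log2 deviation of each array from the mean of all 6, for the 11 probe sets (upper rows) and for the mean of each gene list (lower rows), with Sox2cKO arrays left of CTRL arrays. The means of members and of suprabasal markers are high in Sox2cKO replicates 1 and 2 and CTRL replicate 1, though some single members differ. The mean of fibroblast markers is highest in Sox2cKO replicate 3, at 1.45.

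Markers of fibroblasts and pericytes, whose cells the sort should exclude, were above 0 in 11 of 11 tested genes, with a median of 1.22. With arrays coded for sex 10 of 11 were above 0 and the median was 0.77. The summed linear level of these markers was 6472 to 19079 in Sox2cKO and 3667 to 6243 in CTRL. All 11 passed the filter on low values, among them Dcn (difference 1.73), Lum (1.61) and Col5a1 (0.86). With 1 array left out these fell as low as 1.10, 1.13 and 0.55. The marker score was -0.03, 0.20 and 1.45 in Sox2cKO replicates 1 to 3, and -0.27, -0.32 and -1.03 in CTRL replicates 1 to 3. The correlation of this score with that of the members was 0.13 (Spearman 0.60), and -0.050 without the 2 farthest arrays. Its part in the member values was not tested.

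Genes of desmosomes, corneodesmosomes and the filaggrin family were read from the same arrays. Not all of them are substrates of these proteases: the list also holds general desmosome genes such as Dsc2, Dsc3, Dsp, Pkp1, Pkp3 and Jup. Of the 11 tested, among which Rptn was the only filaggrin family gene, 10 were above 0 and 0 passed the adjusted p, with a median of 0.28. With arrays coded for sex, only 3 of the 11 were above 0 and the median was -0.085. The gene below 0, named after its value was seen, was Cdsn, which encodes the Klk7 substrate corneodesmosin, at -0.022 (SE 0.20). Flg and Hrnr, of the filaggrin family, did not pass the filter on low values. The desmosomal cadherin genes Dsg1b (8.80, 8.88 and 7.98 in Sox2cKO, against 8.89, 6.27 and 8.14 in CTRL), Dsc3 (difference 0.32) and Dsc2 (0.28) had the smallest p values. Dsg1b, which has closely similar neighbours and may share signal with them, was low in the same array as Spink5, CTRL replicate 2, and its difference was 0.032 without that array, where Dsc3 was at 0.11 and Dsc2 at 0.030. With arrays coded for sex these 3 turned to -0.34, -0.05 and -0.09.

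Of 19 other kallikrein genes listed, 12 had a probe set and 4 were tested, of which 0 passed the adjusted p: Klk12 at -0.12 (SE 0.23), Klk9 at -0.03 (SE 0.20), Klk1 at 0.01 (SE 0.16) and Klk1b21 at 0.01 (SE 0.17). With arrays coded for sex these 4 were at -0.42, -0.28, 0.28 and -0.05 in the same order. The Klk1 group holds close copies, so Klk1 and Klk1b21 may share signal with their relatives. Klk12 and Klk9, which sit inside the cluster between members, had correlations with the member score of -0.21 and 0.44.

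Among other proteases of the epidermis 13 of 20 tested genes were above 0, with a median of 0.02, and 0 passed. The serine protease gene Prss22 read 9.99, 9.80 and 9.12 in Sox2cKO, against 9.22, 8.11 and 7.78 in CTRL, overlapping by the lowest Sox2cKO array. Its difference was 1.27 (SE 0.39, adjusted p 0.999 in limma), and 0.42 with arrays coded for sex. Tmprss11e, a membrane-bound serine protease of epithelia, read 7.73, 8.08 and 8.14 in Sox2cKO, against 7.66, 5.98 and 7.25 in CTRL, and did not overlap. Its difference was 1.02 (SE 0.40), 0.53 without CTRL replicate 2 and 0.33 with the sex coding. Blmh, bleomycin hydrolase, which breaks filaggrin down to amino acids, differed by 0.23 (SE 0.13), and by 0.12 with that coding.

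Of 10 tested protease inhibitors 6 were above 0 and 0 passed, with a median of 0.05. Serpinb6c, a clade B serpin, read 5.91, 5.43 and 5.47 in Sox2cKO, against 5.28, 4.38 and 5.04 in CTRL, without overlap. Its value in CTRL replicate 2 lay below the 40th percentile of that array, 4.91. The Serpinb6c difference was 0.71 (SE 0.25), 0.45 without CTRL replicate 2 and 0.33 with the sex coding. Wfdc12 was at 0.61, and at 0.32 without Sox2cKO replicate 2, 0.37 without CTRL replicate 2 and 0.16 with the sex coding. Slpi, the secretory leukocyte protease inhibitor gene, was at -0.36, and at -0.24 without Sox2cKO replicate 2. Kallikreins also cleave the receptor PAR2 and cytokine precursors in skin. The PAR2 gene F2rl1 was not analysed here, and F2r encodes the related receptor PAR1. In the list of PAR family receptors and cytokines 3 of 7 tested genes were above 0, with a median of -0.09, and F2r (0.69), Tslp (0.61) and Il1a (-0.40) had the smallest p values. F2r was at 0.36 without Sox2cKO replicate 3, Tslp at 0.26 without CTRL replicate 1 and 1.07 without CTRL replicate 2, and Il1a at -0.12 without Sox2cKO replicate 2 and -0.70 without CTRL replicate 2. Of the suprabasal markers 11 of 12 were above 0 and 0 passed, with a median of 0.21, but with arrays coded for sex 3 of 12 were above 0 and the median was -0.32. Lor, the loricrin gene, read 6.51, 6.46 and 6.47 in Sox2cKO, against 6.28, 6.18 and 6.01 in CTRL, Ivl, the involucrin gene, differed by 0.84 and Sbsn by 0.39. With the sex coding Lor was at 0.20, Ivl at -0.13 and Sbsn at 0.026.

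Of all tested genes that are no member, Usp25, Irf7, Rhov, Nfkbil1 and Ap3b1 had the patterns most like the member score, with Pearson correlations of 0.993, 0.992, 0.991, 0.991 and 0.989 over 6 arrays. They are the top 5 of a search over all tested genes. The differences were 0.21, 0.44, 0.71, 0.13 and 0.13 in the same order, and each had an adjusted p of 0.999 in limma.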

How the data were processed

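Each of 6 Affymetrix whole-genome mouse arrays measured 1 sample, from 100 ng of total RNA labelled by a 3' amplification kit, per the labels' protocols. The deposited values were log2 per probe set, a scale read from their range, and array medians were already alike. R 2.14.0 is named in the authors' processing, per the submitters' processing notes. Background correction, summarising and normalization: not given in the sources used here. Of 45101 probe sets, 64 were controls, 34945 had 1 symbol in the platform annotation, 932 several and 9160 none.

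Probe sets in which at least 3 arrays exceeded the array's 40th percentile were kept, and the probe set with the highest mean stood for a gene. Sox2cKO minus CTRL was tested (two-sided) by limma 3.58.1, run under R 4.3.3, with Benjamini-Hochberg adjustment over 13222 genes. Probe set 1418748_at was fitted among 23534 named probe sets, and Klk5 without the filter. The fit was tested on simulated data. The labels give replicate numbers without saying what a number marks; deviations from group means correlated at 0.288, 0.206 and 0.211 between same-numbered arrays and at -0.333 to 0.0636 between others, so the numbers were taken as pairs. Deviations cancel within a group, so these correlations depend on one another, and the pairing rests on the values that were then tested. Scores are mean deviations per array. The number of arrays limits the precision. The members and the 14 other gene lists were chosen with earlier results of these data known. Named genes were all members and tested other kallikreins, Sox2 and the sort markers, up to 3 genes of smallest p per list, and the 5 of most similar pattern. Alternatives covered scaling, a linear offset, filter, probe set choice, variance model, replicate block, sex and each array left out.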

Additional observations from a re-analysis of the deposited data

How the results depend on the processing

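No member passed under any of the 16 alternatives, nor did any gene except 1 with the sex covariate (Ostf1) and 5 without CTRL replicate 1 (Sox2, Xist, Eif2s3y, Kdm5d and Uty), so leaving out arrays gave 0 to 5 genes and 0 members. Without CTRL replicate 1 the remaining CTRL arrays both had high Xist, so group and sex coincided. Of the genes called there, Xist, Eif2s3y, Kdm5d and Uty are sex-linked. The replicate block gave 0 genes and 0 members. The member median lay between 0.07 and 0.29 with each array left out, at 0.36 with the mean of probe sets, at 0.26 with every probe set fitted on its own and at 0.04 with the sex covariate. Signs turned with the sex covariate for Spink5 (-0.50), Klk1b21 (-0.051), Dsc3 (-0.049), Dsg1b (-0.34), Dsc2 (-0.085), Ivl (-0.13), Usp25 (-0.021) and Ap3b1 (-0.021), and for Usp25 with the mean of probe sets (-0.0014), and the cause was not tested. With arrays left out, ranges that crossed 0 were -0.14 to 0.37 for Klk6, -0.23 to 0.032 for Klk10, -0.26 to 0.33 for Klk13, -0.069 to 1.25 for Spink5, -0.089 to 0.14 for Casp14 by 1443787_x_at, -0.0064 to 0.18 for Itga6, -0.30 to 0.063 for Klk12, -0.21 to 0.10 for Klk9, -0.12 to 0.086 for Klk1 and -0.10 to 0.15 for Klk1b21. Quantile normalization, median centring, an offset of 16, both other filters, the variance model and the block turned no member. Klk5, above the unspiked control probe sets but around the 40th percentile, was fitted only without the filter.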

Other observations

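Among markers of basal keratinocytes, Krt15, which encodes a keratin of the basal layer, did not overlap between groups. It read 10.86, 11.06 and 10.32 in Sox2cKO, against 11.14, 11.52 and 11.25 in CTRL (difference -0.56, adjusted p 0.999 in limma). The 10 tested basal markers had a median of 0.03. Markers of other cell types were read as well. Cd74, the class II invariant chain of antigen-presenting cells, read 7.14, 7.70 and 6.59 in Sox2cKO, against 8.80, 7.76 and 8.14 in CTRL without overlap (difference -1.09), and the 6 tested leukocyte markers had a median of 0.04. Of 6 tested sebocyte markers 4 were below 0, with a median of -0.35 and Mgst1 at -0.40, and CTRL replicate 2, the array lowest in Spink5, had the highest sebocyte score, at 1.08. Melanocyte markers had scores of 0.07, 0.95 and -0.85 in Sox2cKO and 0.10, 0.13 and -0.39 in CTRL, and the 3 tested endothelial markers a median of 0.03.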
